A study of Homo sapiens with 12 samples.

Results

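The IFIT family and the ISG15 conjugation system are described here through 10 genes, IFIT1, IFIT2, IFIT3, IFIT5, ISG15, UBA7, UBE2L6, HERC5, HERC6 and USP18. They were chosen by name, as the rows of the deposited expression table that carry these symbols, with earlier results of these data known. All 10 were found among the 16383 genes listed, and all 10 passed the filter for testing, a mean of at least 10 normalized counts over the 12 libraries, which 11242 genes passed. HERC5 was the only member whose mean was below 10 in any group, in proliferating cells and with palbociclib.

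RNA captured by its poly(A) tail was sequenced from wild-type IMR90, a diploid fibroblast line from human lung, grown in DMEM with fetal bovine serum. The 4 groups held 3 libraries each. The proliferating group (Prolif) was untreated. The other groups had received 20 Gy of ionizing radiation over 10 min, a dose used to drive fibroblasts into senescence, a lasting arrest of division, and were harvested on day 11. Of these, the first was given the vehicle DMSO (Sen_DMSO), the second 2 µM palbociclib, an inhibitor of the kinases CDK4 and CDK6 (Sen_Palbo), and the third 2 µM ruxolitinib, an inhibitor of the Janus kinases JAK1 and JAK2 (Sen_Ruxo). The vehicle and each inhibitor were given on day 4 and again on days 6, 8 and 10. No vehicle and no harvest day are stated for Prolif. A rise with irradiation below means Sen_DMSO against Prolif, in which radiation, vehicle and time of harvest cannot be told apart. The groups all come from a single cell line, and the labels do not say whether the libraries of a group came from separate cultures, so the p-values measure the spread between these libraries, which may be technical. Libraries are named by the numbers in the column names: A125 to A127 are Prolif, A116 to A118 Sen_DMSO, A119 to A121 Sen_Palbo and A122 to A124 Sen_Ruxo.

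As background, type I interferons bind receptors that activate JAK1 and TYK2, and these kinases act through the complex ISGF3, which contains STAT2 and IRF9. ISGF3 binds the interferon-stimulated response element (ISRE) in the promoters of interferon-stimulated genes. Among their products, the IFIT proteins bind RNA that looks foreign, such as RNA with an unusual 5′ end, and hold back its translation. ISG15 is a ubiquitin-like protein that is joined to other proteins by an enzyme chain: UBA7 activates it, UBE2L6 carries it, HERC5 is the main ligase in human cells, and HERC6 is a HERC5 relative that serves as the main ligase in mouse. USP18 removes ISG15 from its targets and also binds the receptor subunit IFNAR2 and damps interferon signalling.

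The 4 IFIT members lie near each other on chromosome 10 of GRCh38.p14, all on the plus strand, in the order IFIT2 (chr10:89302046-89309271), IFIT3 (chr10:89327997-89340968), IFIT1 (chr10:89392623-89406487) and IFIT5 (chr10:89414568-89420997). HERC6 (chr4:88378852-88443097) and HERC5 (chr4:88457119-88506163) are neighbours on the plus strand of chromosome 4. ISG15 (chr1:1013497-1014540) and USP18 (chr22:18150170-18177397) are on the plus strand, and UBA7 (chr3:49805209-49813953) and UBE2L6 (chr11:57551662-57567935) on the minus strand. Because the members move together in the results that follow, their promoters were searched for the ISRE core, GAAANNGAAA on either strand, in the 250 bases before the start of each gene in the RefSeq promoter table of GRCh38.p14, which matched 7 of the 10 members. The core was present in 5 of the 7 (71.4%), against 839 of all 27305 promoters in the table (3.07%) and 12 of 20 promoters of other interferon-stimulated genes (60%). HERC6 and UBE2L6 had no match in this window, and IFIT2, USP18 and UBA7 were not among the matched entries. The stretches that hold the cores are given with 30 bases on each side where the window allows, 5′ to 3′ on the plus strand, which is the strand of each gene shown, and capitals mark every base that belongs to a core match. They are chr10:89392477-89392559 for IFIT1, chr10:89327811-89327914 for IFIT3, chr10:89414493-89414567 for IFIT5, chr1:1013354-1013429 for ISG15 and chr4:88456964-88457084 for HERC5.
IFIT1: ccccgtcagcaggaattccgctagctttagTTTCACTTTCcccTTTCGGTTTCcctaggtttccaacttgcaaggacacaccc
IFIT3: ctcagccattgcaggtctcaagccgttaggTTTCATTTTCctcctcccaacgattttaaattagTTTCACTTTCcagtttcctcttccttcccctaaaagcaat
IFIT5: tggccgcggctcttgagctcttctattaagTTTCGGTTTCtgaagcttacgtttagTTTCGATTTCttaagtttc
ISG15: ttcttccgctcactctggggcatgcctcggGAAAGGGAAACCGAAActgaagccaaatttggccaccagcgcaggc
HERC5: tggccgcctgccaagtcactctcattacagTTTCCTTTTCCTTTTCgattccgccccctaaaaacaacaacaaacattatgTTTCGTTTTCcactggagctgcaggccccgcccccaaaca

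Each IFIT stretch held 2 separate cores. In IFIT1 they began 116 and 103 bases before the start of the gene, in IFIT3 156 and 122 bases before it, and in IFIT5 45 and 19 bases before it, so that the IFIT5 cores were the closest to the start. The 2 cores of ISG15 overlapped each other, and HERC5 held 3, of which the first 2 overlapped. A second motif, the GAS core (TTCNNNGAA, either strand), was in none of the 7 member windows, in 1850 of the 27305 promoters (6.78%) and in 7 of the 20 other interferon-stimulated genes (35%). These matches are descriptions of letters in a fixed window, and a missing match says nothing about binding elsewhere.

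Recovered reads per library over the listed genes ranged from 14106799 to 21762412. After the authors' normalization, mean summed counts were 16554893 in Sen_DMSO and 16844894 in Sen_Ruxo against 19409359 in Prolif and 19369896 in Sen_Palbo, and scaling to equal totals would raise the median gene of Sen_DMSO against Prolif by 0.23 on the log2 scale. All 9 fibroblast markers tested were present. Their summed normalized counts per library were 820760 to 853300 in Prolif and 407860 to 418460 in Sen_DMSO. They were 650310 to 682750 in Sen_Palbo and 514830 to 518940 in Sen_Ruxo. Most of each sum came from COL1A1 and COL1A2, with means of 401324 and 226318 in Prolif and 165728 and 126871 in Sen_DMSO. By gene, 7 of the 9 were called lower in Sen_DMSO than in Prolif (39.3% of all tested genes). The 2 called higher (33.0%) were DCN and THY1. The 6 leukocyte markers summed to 3.33 to 8.30 in Prolif, 37.0 to 50.5 in Sen_DMSO, 17.8 to 26.3 in Sen_Palbo and 29.8 to 37.0 in Sen_Ruxo. CD14, the only leukocyte marker that passed the filter, was higher in Sen_DMSO than in Prolif by 2.71 on the log2 scale. Its differences from Sen_DMSO were -1.14 with palbociclib and -0.82 with ruxolitinib. CD3E, a T cell marker, was at 0 in the Prolif and Sen_DMSO libraries and had 1 read over Sen_Palbo and 5 over Sen_Ruxo. The 4 endothelial markers summed to 5.55 to 9.34 in Prolif, 29.6 to 50.9 in Sen_DMSO, 21.0 to 35.0 in Sen_Palbo and 31.6 to 56.7 in Sen_Ruxo. The 4 epithelial markers summed to 9.52 to 42.1 over all libraries, and the part of these low levels in the results was not tested. In bulk RNA, fewer cells of a type and less RNA per cell cannot be told apart.

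All 10 members were called higher in irradiated cells with DMSO than in proliferating cells, where 33.0% of all tested genes were called higher and 39.3% lower. All 10 were called lower than DMSO with palbociclib (22.3% of all genes lower, 26.0% higher) and with ruxolitinib (3.42% lower, 1.10% higher), although for HERC5 the latter call was not stable. The rise ranged from 2.00-fold for IFIT5 to 56.7-fold for IFIT1. Between the inhibitors, palbociclib had 3 members called lower and 2 higher than ruxolitinib, where 17.6% of all genes were called lower and 22.8% higher. These counts are read as no result about the members as a set. By gene, IFIT2, IFIT3 and HERC5 stayed higher with ruxolitinib than with palbociclib. IFIT5 was lower with ruxolitinib, as was UBA7 by a call that was lost at equal totals. Genes count as called where limma, a moderated linear model fitted to log2(normalized count + 1), gave a Benjamini-Hochberg adjusted p below 0.05 over the 11242 tested genes. All adjusted p-values that follow come from that fit, and all fold changes are on that scale, which understates the change of genes with low counts.

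**Figure D1:**
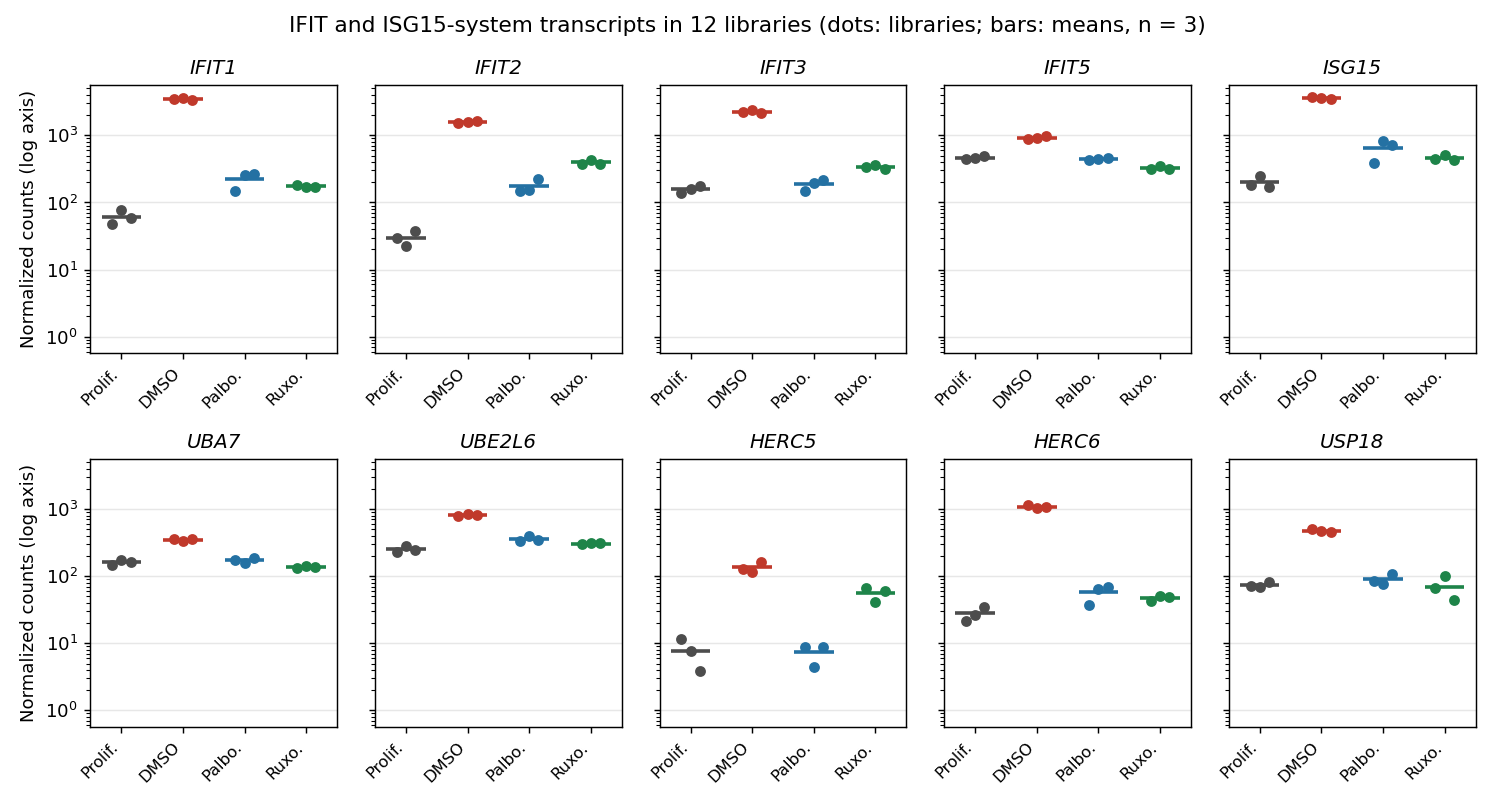
Normalized counts (log axis) of the 10 members in the 4 groups, with 1 dot per library and bars at the group means (n = 3). The 3 Sen_DMSO libraries lie above all other libraries in every panel, and in HERC5 the Sen_Ruxo libraries lie between them and the rest.

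IFIT1, which binds RNA lacking the cap methylation of host messages, had normalized counts of 47.7, 77.6 and 58.1 in Prolif, 3422, 3578 and 3360 in Sen_DMSO, 146.1, 252.9 and 266.5 in Sen_Palbo and 184.4, 171.1 and 170.5 in Sen_Ruxo. The 3 DMSO libraries were far above all others, and the inhibitor libraries lay above the proliferating ones without overlap. The difference of Sen_DMSO from Prolif was 5.82 (SE 0.19, adjusted p = 4.10e-13), the 10th largest log2 rise among the 11242 genes. With palbociclib the level fell by 4.00 (SE 0.19, adjusted p = 2.56e-10) and with ruxolitinib by 4.29 (SE 0.19, adjusted p = 4.16e-10). IFIT1 nevertheless remained 3.53-fold above Prolif with palbociclib (adjusted p = 3.20e-07) and 2.89-fold with ruxolitinib (adjusted p = 2.49e-06).

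IFIT2 works in complexes with IFIT1 and IFIT3 and has been tied to cell death. Its counts were 29.1, 22.2 and 38.1 in Prolif, 1504, 1566 and 1614 in Sen_DMSO, 147.2, 152.2 and 220.3 in Sen_Palbo and 377.3, 430.4 and 379.0 in Sen_Ruxo. Here the 4 groups formed separate levels, with every ruxolitinib library above every palbociclib library. The rise with irradiation was 5.70 (SE 0.17, adjusted p = 1.54e-13), close to that of IFIT1, but it fell by 3.19 with palbociclib (adjusted p = 8.81e-10) and by 1.98 with ruxolitinib (adjusted p = 9.50e-07). Sen_Palbo was lower than Sen_Ruxo by 2.31-fold (log2 difference -1.21, SE 0.17, adjusted p = 4.10e-05). Against Prolif, IFIT2 was still 5.69-fold higher with palbociclib (adjusted p = 1.67e-09) and 13.2-fold higher with ruxolitinib (adjusted p = 1.73e-11).

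IFIT3, which stabilizes IFIT1 and adds to its binding of RNA, was at 140.1, 160.8 and 175.2 in Prolif, 2208, 2366 and 2161 in Sen_DMSO, 149.4, 194.9 and 215.9 in Sen_Palbo and 340.3, 356.6 and 316.7 in Sen_Ruxo. The palbociclib libraries overlapped the proliferating ones, and the ruxolitinib libraries lay above both. It rose by 3.82 with irradiation (SE 0.12, adjusted p = 2.18e-13), fell by 3.60 with palbociclib (adjusted p = 4.01e-12) and fell by 2.73 with ruxolitinib (adjusted p = 3.40e-10). The direct difference between the inhibitors was -0.87 (SE 0.12, adjusted p = 3.15e-05), lower with palbociclib. Sen_Ruxo exceeded Prolif by 1.09 (SE 0.12, adjusted p = 5.20e-07), whereas the difference of Sen_Palbo from Prolif was 0.22 with a 95% interval of -0.03 to 0.47 and was not called (adjusted p = 0.0981). That last comparison was called under 5 of 23 alternatives, such as scaling to equal upper quartiles (0.35, adjusted p = 0.0140) and leaving out A119 (0.37, adjusted p = 0.00266).

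IFIT5, which binds RNA with a 5′ triphosphate and acts alone rather than in the IFIT complex, rose least of the members with irradiation. Its counts were 436.8, 454.7 and 498.0 in Prolif, 868.1, 928.1 and 980.6 in Sen_DMSO, 423.8, 442.2 and 454.8 in Sen_Palbo and 317.1, 350.3 and 319.4 in Sen_Ruxo. Palbociclib libraries overlapped the proliferating ones, and all ruxolitinib libraries lay below them. The rise was 1.00 (SE 0.07, adjusted p = 7.34e-09), the fall with palbociclib was -1.07 (adjusted p = 2.09e-08) and that with ruxolitinib -1.49 (adjusted p = 1.25e-09). IFIT5 was the only member called lower with ruxolitinib than in Prolif, by -0.49 (SE 0.07, adjusted p = 2.22e-05), and it was higher with palbociclib than with ruxolitinib by 0.42 (SE 0.07, adjusted p = 3.78e-04).

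ISG15, the modifier itself, had counts of 181.6, 244.0 and 170.5 in Prolif, 3712, 3659 and 3516 in Sen_DMSO, 392.9, 810.1 and 712.4 in Sen_Palbo and 446.7, 505.1 and 425.9 in Sen_Ruxo. Library A119 was the lowest of the palbociclib libraries and lay below the ruxolitinib range, while A120 and A121 lay above it. The rise with irradiation was 4.20 (SE 0.20, adjusted p = 2.70e-11), and the level then fell by 2.57 with palbociclib (adjusted p = 5.45e-08) and by 2.98 with ruxolitinib (adjusted p = 3.73e-08). It stayed above Prolif by 3.10-fold with palbociclib (adjusted p = 1.64e-06) and by 2.33-fold with ruxolitinib (adjusted p = 3.99e-05). Palbociclib against ruxolitinib gave 0.41, with an interval of -0.00388 to 0.83, and was not called (adjusted p = 0.106), but without A119 it was 0.73 (adjusted p = 1.66e-04).

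UBA7, the activating enzyme, was at 146.3, 175.2 and 162.8 in Prolif, 357.3, 332.7 and 352.7 in Sen_DMSO, 176.0, 157.6 and 184.8 in Sen_Palbo and 131.2, 143.2 and 139.0 in Sen_Ruxo. As for IFIT5, the DMSO libraries were the highest and the ruxolitinib libraries the lowest. The rise was 2.15-fold (log2 difference 1.10, SE 0.10, adjusted p = 5.51e-08), and levels fell by 1.01 with palbociclib (adjusted p = 8.16e-07) and by 1.33 with ruxolitinib (adjusted p = 1.64e-07). Sen_Palbo was higher than Sen_Ruxo by 0.32 (SE 0.10, adjusted p = 0.0159), a call that was lost at equal totals (0.12, adjusted p = 0.325) and without A121 or A122 (adjusted p = 0.0651 and 0.0648). Neither inhibitor group was called different from Prolif, at 0.10 for palbociclib (adjusted p = 0.375) and -0.22 for ruxolitinib (adjusted p = 0.0502, groups not overlapping). The former was called at equal upper quartiles (adjusted p = 0.0485) and under quantile normalization (adjusted p = 0.00965). The latter was called under 5 of 23 alternatives: a pseudocount of 0.1, a mean of at least 50, no variance trend, and without A125 or A120 (adjusted p from 0.0215 to 0.0483).

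UBE2L6, the carrier enzyme, had counts of 230.4, 282.8 and 245.7 in Prolif, 779.0, 858.3 and 819.8 in Sen_DMSO, 335.3, 390.8 and 341.1 in Sen_Palbo and 297.0, 308.8 and 313.1 in Sen_Ruxo. No groups overlapped, in the order Sen_DMSO, Sen_Palbo, Sen_Ruxo and Prolif. The rise was 3.24-fold (1.70, SE 0.09, adjusted p = 9.12e-11) and was followed by a fall of 2.30-fold with palbociclib (adjusted p = 3.36e-08) and 2.67-fold with ruxolitinib (adjusted p = 1.80e-08). The inhibitors differed from each other by 0.21 (interval 0.03 to 0.40), which was not called (adjusted p = 0.0649). It was called under quantile normalization (adjusted p = 0.0368), without A126 (0.0360) and without A119 (0.0446), and was 0.011 at equal totals. Each inhibitor group remained above Prolif, by 0.49 with palbociclib (adjusted p = 1.05e-04) and by 0.28 with ruxolitinib (adjusted p = 0.00921). The last call was lost without A125 (0.22, adjusted p = 0.0520).

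HERC5, the human ISG15 ligase, had the lowest counts of the members in every group but Sen_Ruxo, where HERC6 was lower on average. Its normalized counts were 11.4, 7.76 and 3.81 in Prolif, 126.7, 116.0 and 163.0 in Sen_DMSO, 8.85, 4.38 and 8.88 in Sen_Palbo and 65.6, 41.4 and 59.6 in Sen_Ruxo, which in recovered reads is 11, 7 and 4, then 128, 98 and 141, then 8, 4 and 10, and then 85, 46 and 66. The palbociclib libraries fell within the proliferating range, whereas each ruxolitinib library lay far above it and below the DMSO libraries. It rose by 4.06 with irradiation (SE 0.34, adjusted p = 3.05e-08) and differed by -4.06 with palbociclib from DMSO (adjusted p = 1.65e-07).

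With ruxolitinib HERC5 fell by 1.28 (SE 0.34, adjusted p = 0.0443), the smallest estimated fall of the 10 members with that drug. That rank was not resolved: UBA7 fell by 1.33, and without A122 HERC5 was at -1.41 and UBA7 at -1.29. The HERC5 call was lost under 11 of 23 alternatives, among them leaving out A116 (adjusted p = 0.127), A117 (0.101), A118 (0.199), A121 (0.0550), A122 (0.0936), A123 (0.211) or A124 (0.116). Over all 23, the adjusted p ranged from 2.19e-06, with only the compared groups in the fit, to 0.211. On the recovered reads the call held, with an adjusted p of 0.00126 in edgeR and 7.42e-06 in DESeq2. The gap between the inhibitors was the largest of any member: HERC5 was 6.89-fold lower with palbociclib than with ruxolitinib (-2.78, SE 0.34, adjusted p = 1.24e-05). Ruxolitinib against Prolif gave 2.78 (SE 0.34, adjusted p = 2.34e-06), and palbociclib against Prolif 0.000563 with an interval of -0.73 to 0.73, so at these counts a difference smaller than that was not detectable.

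HERC6, its neighbour on chromosome 4, behaved unlike HERC5 under ruxolitinib. It was at 21.8, 26.6 and 35.2 in Prolif, 1138, 1024 and 1073 in Sen_DMSO, 37.6, 64.6 and 70.2 in Sen_Palbo and 43.2, 50.4 and 48.7 in Sen_Ruxo. The libraries of both inhibitors lay just above the proliferating range, with A119 again the lowest palbociclib library. The rise was 5.25 (SE 0.21, adjusted p = 3.87e-12), and the fall was 19.1-fold with palbociclib (adjusted p = 3.33e-10) and 22.3-fold with ruxolitinib (adjusted p = 5.66e-10), the largest falls of any member with either drug. Against Prolif it remained higher by 0.99 with palbociclib (adjusted p = 4.48e-04) and by 0.77 with ruxolitinib (adjusted p = 0.00347), the latter lost under quantile normalization (0.32, adjusted p = 0.154). The inhibitors did not differ by call (0.22, interval -0.22 to 0.66, adjusted p = 0.410), except without A119 (0.50, adjusted p = 0.0270) and under quantile normalization (0.54, adjusted p = 0.0468).

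USP18, the protease that removes ISG15, had counts of 71.6, 68.8 and 80.9 in Prolif, 500.9, 470.0 and 453.3 in Sen_DMSO, 85.2, 77.7 and 106.6 in Sen_Palbo and 65.6, 99.9 and 44.2 in Sen_Ruxo. The ruxolitinib libraries were spread over a wider range than in any other group and overlapped both Prolif and Sen_Palbo. USP18 rose 6.37-fold (2.67, SE 0.21, adjusted p = 1.54e-08), fell by 2.40 with palbociclib (adjusted p = 2.93e-07) and by 2.82 with ruxolitinib (adjusted p = 2.15e-07), and was not called different from Prolif with palbociclib (0.27, adjusted p = 0.258) or ruxolitinib (-0.15, adjusted p = 0.538), although without A123 it was called lower with ruxolitinib (-0.44, adjusted p = 0.0357). The inhibitors differed by 0.42 (interval -0.03 to 0.87, adjusted p = 0.126), which became a call without A123 (0.71, adjusted p = 0.00625) and under quantile normalization (0.68, adjusted p = 0.0258) and shrank to 0.14 without A124. Of the 50-base words in the USP18 exons, 23.2% also occur in other annotated genes, among them USP41, so its counts are uncertain to the extent that such reads were shared.

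**Figure D2:**
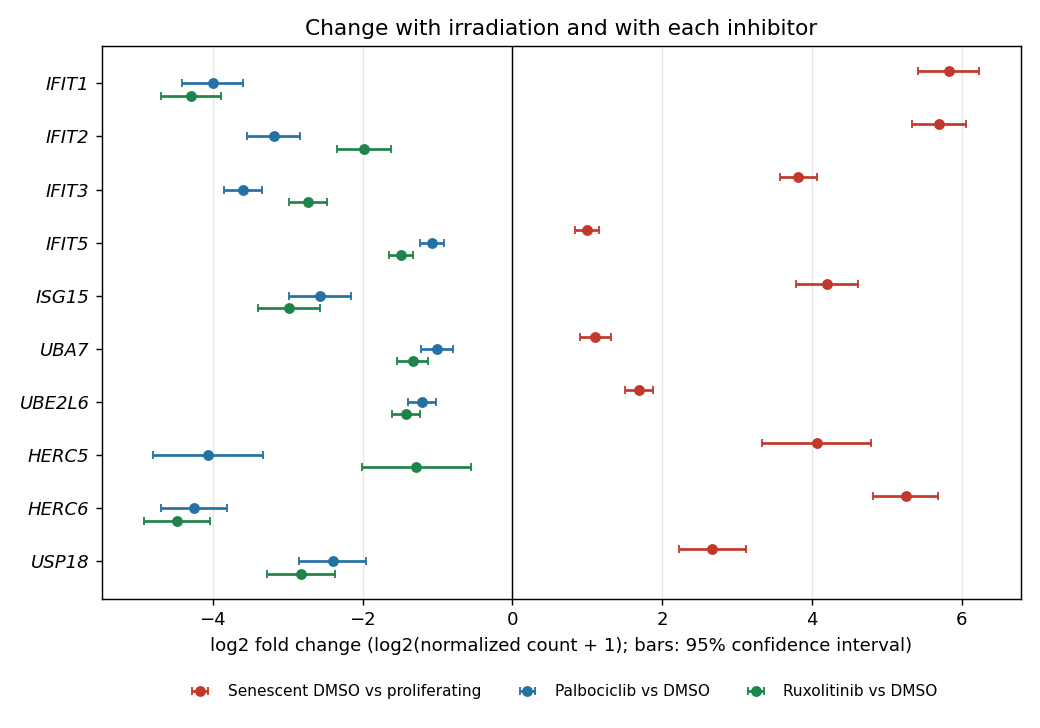
Log2 fold change of each member (x axis, log2(normalized count + 1)) for Sen_DMSO against Prolif and for each inhibitor against Sen_DMSO, with points at the estimate and bars at the 95% confidence interval. All 10 red points lie right of 0 and all blue and green points left of it. The green HERC5 point, at -1.28, lies nearest to 0 of the ruxolitinib points, with UBA7 next at -1.33.

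As a group, the members had a median log2 difference of 3.94 between Sen_DMSO and Prolif, against -0.05 over all tested genes. With palbociclib against DMSO the medians were -2.88 for the members and 0.02 for all genes. Ruxolitinib against DMSO gave a median of -2.35 for the members, against -0.00280 for all genes. The 3 comparisons share the DMSO libraries. No member's direction changed in them under any of the 23 alternatives.

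**Figure D3:**
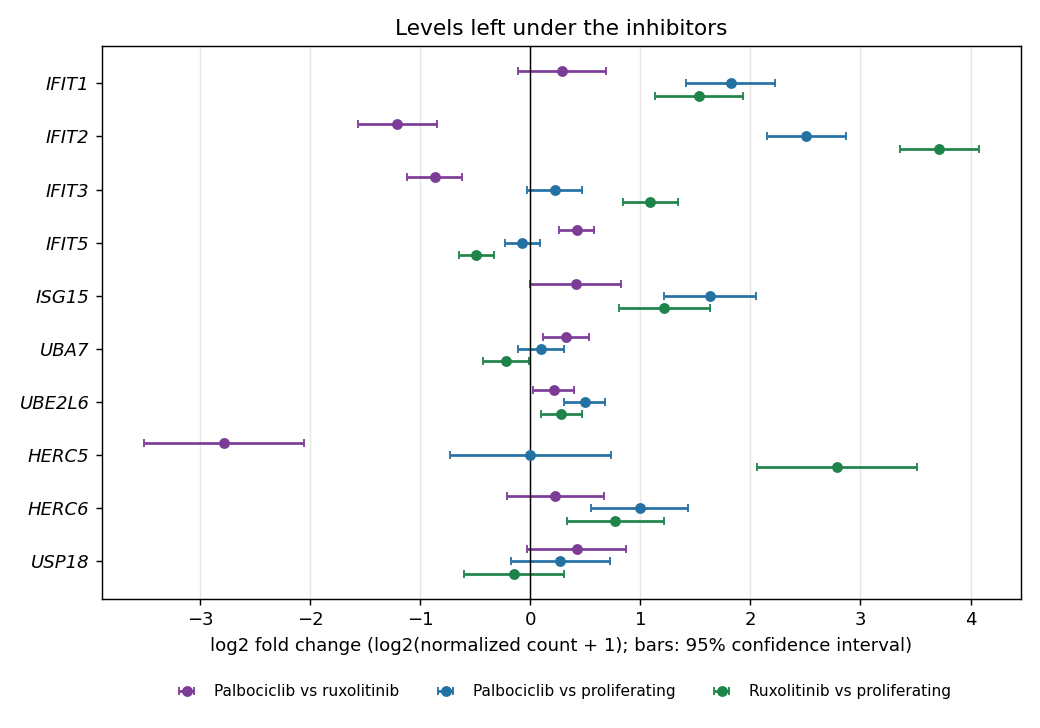
Log2 fold change of each member (x axis) for palbociclib against ruxolitinib and for each inhibitor group against proliferating cells, with points at the estimate and bars at the 95% confidence interval. IFIT2, IFIT3 and HERC5 lie left of 0 in the direct comparison, and the green ruxolitinib points of these genes lie at 3.72, 1.09 and 2.78 above proliferating cells.

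In the direct comparison, palbociclib had 2 members called higher and 3 called lower relative to ruxolitinib, and 5 not called, where 22.8% of all genes were called higher and 17.6% lower. The members' median was 0.26 and that of all genes 0.02. The 3 lower members, IFIT2, IFIT3 and HERC5, were called lower also at equal totals, equal upper quartiles and equal quantiles and without any 1 library. The other 7 all had estimates above 0, from 0.21 for UBE2L6 to 0.42 for USP18, and none changed sign under any alternative. Their size depended on the scaling. Equal totals shifted the median gene by -0.20 and left UBE2L6 at 0.011, HERC6 at 0.027, IFIT1 at 0.089 and UBA7 at 0.12. Palbociclib against proliferating cells gave 5 members higher and 0 lower (35.2% of all genes higher, 38.6% lower), with medians of 0.38 and -0.03. Ruxolitinib against proliferating cells gave 7 higher and 1 lower (32.6% higher, 39.5% lower), with medians of 0.93 and -0.06. With 5 of 10 beside 35.2%, the count for palbociclib against proliferating cells is read as no result about the members. The same holds between the inhibitors, with 2 of 10 beside 22.8% and 3 of 10 beside 17.6%.

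Ratios of normalized counts between related members within a library, chosen after the values were seen, show the uneven falls without any scaling between libraries. They are not corrected for gene length, so only their change between groups is read. The ratio of IFIT2 to IFIT1 was 0.286 to 0.656 in Prolif, 0.438 to 0.480 in Sen_DMSO, 0.602 to 1.01 in Sen_Palbo and 2.05 to 2.52 in Sen_Ruxo, the last group lying apart. That of IFIT3 to IFIT1 was 2.07 to 3.02 in Prolif, 0.643 to 0.661 in Sen_DMSO, 0.771 to 1.02 in Sen_Palbo and 1.85 to 2.08 in Sen_Ruxo, so it was lowest in Sen_DMSO and reached the lower end of the proliferating range in Sen_Ruxo only. HERC5 to HERC6 was 0.108 to 0.524, 0.111 to 0.152 and 0.0678 to 0.235 in these first 3 groups and 0.821 to 1.52 in Sen_Ruxo. Within the conjugation system, the ratio of UBE2L6 to ISG15 was 1.16 to 1.44 in Prolif and 0.210 to 0.235 in Sen_DMSO, and 0.479 to 0.854 and 0.611 to 0.735 with palbociclib and ruxolitinib. The ratio of USP18 to ISG15 was 0.282 to 0.475 in Prolif, 0.128 to 0.135 in Sen_DMSO, 0.0959 to 0.217 in Sen_Palbo and 0.104 to 0.198 in Sen_Ruxo, so transcripts of the modifier rose more than those of its carrier or its protease, and the share of protease transcripts was not back at the Prolif range with either drug.

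**Figure D4:**
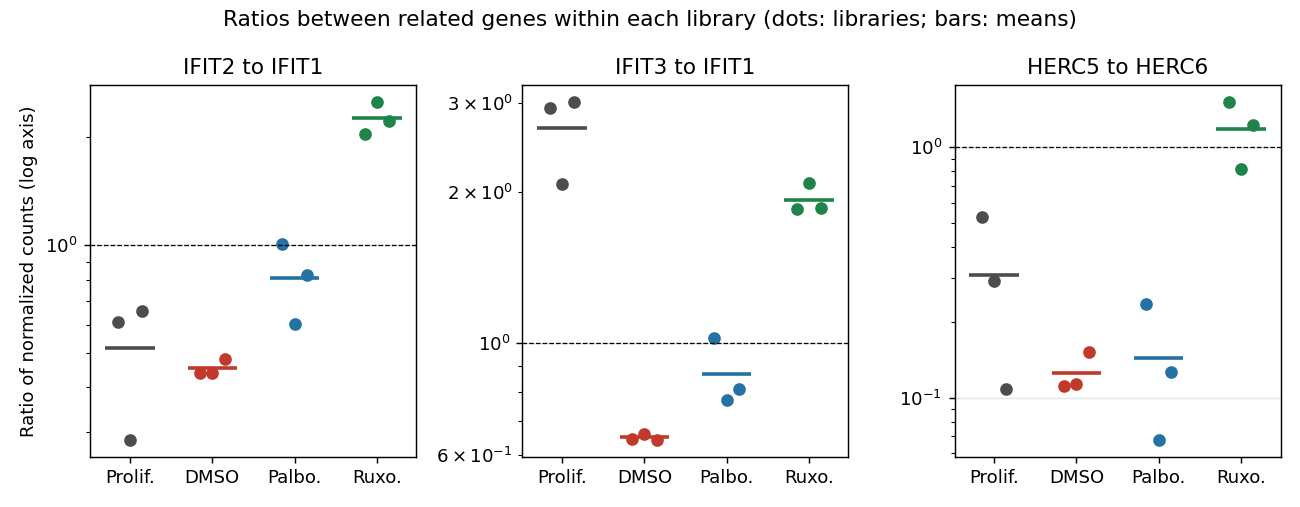
Ratios of normalized counts within each library (log axes of different range) for IFIT2 to IFIT1, IFIT3 to IFIT1 and HERC5 to HERC6, with 1 dot per library, bars at the group means and a dashed line at 1. The Sen_Ruxo libraries are the highest of the 4 groups for IFIT2 to IFIT1 and for HERC5 to HERC6.

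Levels were compared between members per kilobase of the GENCODE v44 exon union, an annotation that need not be the authors'. In Sen_DMSO the order by normalized counts per kilobase was ISG15 (4186), IFIT1 (748.4), IFIT3 (443.1), UBE2L6 (397.2), IFIT2 (360.9), IFIT5 (211.9), HERC6 (186.6), USP18 (115.9), UBA7 (76.4) and HERC5 (28.4), and no neighbours in that order overlapped between libraries. In Prolif the order per kilobase began with ISG15 (229.2), UBE2L6 (122.7) and IFIT5 (106.0), of which the last pair overlapped, and ended with IFIT2 (6.88), HERC6 (4.82), whose ranges overlapped, and HERC5 (1.61). IFIT1 thus moved from the seventh place to the second with irradiation on this per-length scale. ISG15 and UBE2L6 were the highest per kilobase in both inhibitor groups, at 736.4 and 172.5 with palbociclib and 529.7 and 148.6 with ruxolitinib. The third place was held by IFIT5 with palbociclib (100.8 per kilobase) and by IFIT2 with ruxolitinib (91.4).

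The pathway around the members was described from lists of named genes. None of the 9 interferon genes listed reached the filter, so none was tested. IFNB1, which encodes interferon beta, had 0 reads over the Prolif libraries, 9 over Sen_DMSO, 1 over Sen_Palbo and 5 over Sen_Ruxo. It never had more than 3 reads in a library, and its differences between groups were not tested. IFNA1, the listed interferon gene with the most reads, had 8 over Prolif, 35 over Sen_DMSO, 30 over Sen_Palbo and 47 over Sen_Ruxo, and its counts are uncertain because the interferon alpha genes are near copies of each other. IFNE was not analysed here. Of 8 receptor subunits and kinases, 3 were called higher (33.0% of all genes) and 1 lower (39.3%) in Sen_DMSO than in Prolif, with a median of 0.11 (all genes -0.05). With palbociclib against DMSO 2 were higher (26.0%) and 0 lower (22.3%), with a median of 0.08 (all genes 0.02). At equal totals that was 1 higher and 4 lower. With ruxolitinib against DMSO 1 was higher (1.10%) and 0 lower (3.42%), with a median of -0.03 (all genes -0.00280). IRF9, the DNA-binding part of ISGF3, rose by 2.13 (adjusted p = 1.23e-11) and fell by 1.60 with palbociclib (adjusted p = 2.51e-09) and by 2.36 with ruxolitinib (adjusted p = 1.15e-10). It was higher with palbociclib than with ruxolitinib by 0.76 (adjusted p = 1.12e-05), the opposite direction from IFIT2, IFIT3 and HERC5. IRF1, another factor that acts on such promoters, went the other way in this comparison, at -0.35 (adjusted p = 0.00792), and STAT2 was not called (0.16, adjusted p = 0.117).

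Among 23 tested interferon-stimulated genes outside the members, 22 were higher in Sen_DMSO than in Prolif (33.0% of all genes), with a median of 3.46. That median was the same with OAS1 and RSAD2, at 0 reads in Prolif, set to a floor of 3 reads per library. Against DMSO, 22 were lower with palbociclib (22.3% of all genes, list median -3.50) and 22 lower with ruxolitinib (3.42% of all genes, list median -4.39). Set directly against each other, palbociclib had 15 of these 23 higher (22.8% of all genes) and 1 lower (17.6%) relative to ruxolitinib. The median was 0.86 (13 higher, 3 lower and a median of 0.66 at equal totals). The 1 lower gene was OASL, a relative of the OAS enzymes that acts on the sensor RIG-I. It had means of 2.04 ± 1.01 in Prolif, 117.1 ± 9.49 in Sen_DMSO, 7.28 ± 1.76 in Sen_Palbo and 53.3 ± 2.32 in Sen_Ruxo (SD, n = 3), so its order of groups was that of IFIT2, and it was lower with palbociclib than with ruxolitinib by 2.74 on the log2 scale (adjusted p = 2.13e-06). MX1, an antiviral GTPase, showed the other pattern, at 146.7 ± 49.5 with palbociclib and 25.5 ± 4.06 with ruxolitinib (log2 difference 2.42, adjusted p = 3.83e-07). OASL was singled out as the only gene of its list called in that direction with the deposited scaling, and MX1 was chosen after its values were seen.

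Over all tested genes, 33.0% were called higher and 39.3% lower in Sen_DMSO against Prolif. Against DMSO the shares were 26.0% and 22.3% with palbociclib, and 1.10% and 3.42% with ruxolitinib. Of 7 tested sensors and adaptors of foreign nucleic acid, 5 were higher and 1 lower in Sen_DMSO (median 2.10). With palbociclib against DMSO 1 was higher and 6 lower (median -1.25), and with ruxolitinib 0 were higher and 4 lower (median -1.29). Of 7 other ISG15 ligases and proteases tested, 2 were higher and 3 lower in Sen_DMSO (median -0.07, or 0.16 at equal totals). With palbociclib 2 were higher and 2 lower (median 0.04, or -0.19 at equal totals), and with ruxolitinib 0 were higher and 1 lower (median 0.00925). The counts in Sen_DMSO and with palbociclib are near the shares over all genes and are read as no result about this list. TRIM25, a ligase for ISG15 and for RIG-I, was the only one of these 7 called in the members' direction in all 3 comparisons, at 0.85 (adjusted p = 3.94e-10), -0.85 (adjusted p = 2.58e-09) and -1.01 (adjusted p = 1.07e-09). HERC3, which lies in the same cluster on chromosome 4 as HERC5 and HERC6, was not called in Sen_DMSO against Prolif (-0.14, adjusted p = 0.207).

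**Figure D5:**
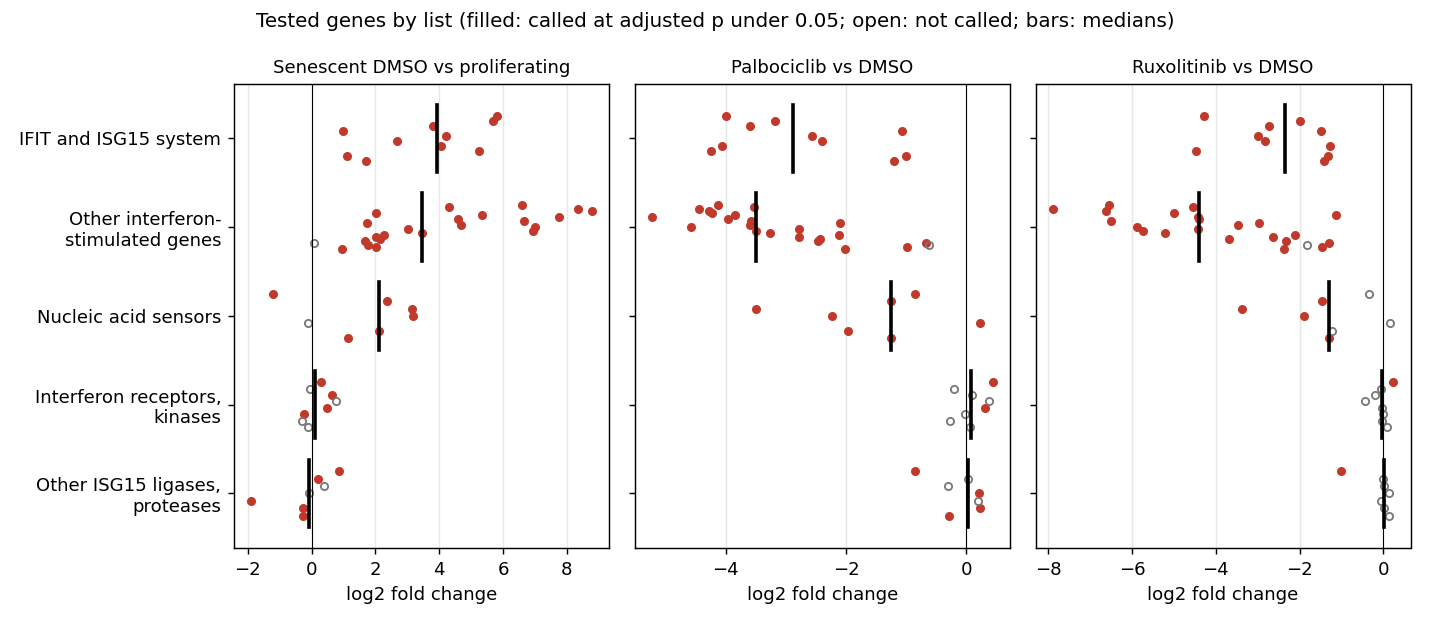
Log2 fold changes (x axes of different range) of the tested genes of each list for Sen_DMSO against Prolif, palbociclib against DMSO and ruxolitinib against DMSO, with filled dots for called genes, open dots for genes not called and bars at the list medians. The members and the other interferon-stimulated genes have medians of 3.94 and 3.46 in the left panel, and the receptors and the other ISG15 enzymes have medians between -0.07 and 0.11 in all 3 panels.

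Looking only at genes that reached 100 normalized counts on average in some group, those whose pattern over the 12 libraries was most like the members' mean standardized profile were IFI44 (Pearson r = 0.992), CMPK2 (0.978), IFI44L (0.978), SP100 (0.967) and MX2 (0.965), all descriptions over libraries that share their groups. IFI44 was at 21.6 ± 3.54 in Prolif, 578.0 ± 59.1 in Sen_DMSO, 49.4 ± 18.3 in Sen_Palbo and 51.5 ± 6.32 in Sen_Ruxo (SD, n = 3). Among the members themselves, HERC6 followed the mean profile most closely (r = 0.995) and HERC5 least (0.794), with IFIT5 (0.869) and IFIT2 (0.871) next to HERC5. Each member is part of that mean, which raises its r, so these values are not comparable with those of the genes outside it.

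The strand of the reads is not stated in the sources used here, so reads from overlapping genes could not be separated. In GENCODE v44, exons of IFIT2 share 524 bases with a noncoding gene on the same strand and 65 bases with LIPA on the other strand, those of IFIT3 share 94 bases with LIPA, those of ISG15 share 36 bases with a pseudogene on the other strand, and those of UBA7 share 109 bases with MIR5193. Of the 50-base words of IFIT2, 8.92% also occur in that noncoding gene or elsewhere, and apart from USP18 the other members had 1.75% or less.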

How the data were processed

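Per the submitters' processing notes, reads were handled with Trimmomatic 0.38.1, FastQC 0.74, MultiQC, HISAT2 2.2.1, featureCounts 2.0.3 and DESeq2 2.11.40.8 on hg38. Strand and annotation are not given in the sources used here. The authors deposited 1 table of normalized counts (a non-negative signal), whose 12 value columns carry group names and library numbers but no replicate numbers. In all columns each value above 0 was a whole multiple of the value of 1 read (160380 of 160380 at a tolerance of 0.01, 100%), so reads were recovered. No replicate pair agreed within counting noise (12 pairs compared, chi-square per degree of freedom 1.83 to 20.2).

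Tests used limma 3.58.1 (R 4.3.3) on log2(normalized count + 1), with 4 group means over 12 libraries, a variance trend and Benjamini-Hochberg adjustment over genes with a mean of at least 10. The steps were run on simulated data with few changed genes and the same spread in every group, a simpler setting than these data. Alternatives were pseudocounts of 0.1 and 5, other filters and scalings, no trend, fits of the compared groups, leaving out each library, and edgeR 4.0.16 and DESeq2 1.42.0 on recovered reads. The members were given by name, all are reported, and members, lists and rules were chosen with earlier results of these data known. Promoters came from RefSeq. Genes like the members were the 5 with the highest Pearson r over 12 libraries. Results of 2 other gene lists are not reported here, apart from IRF9, IRF1, STAT2 and HERC3, which were kept from them after their values were seen.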

Additional observations from a re-analysis of the deposited data

How the results depend on the processing

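Each of the 60 member differences was recomputed under 23 alternatives. In Sen_DMSO against Prolif and in palbociclib against DMSO, 230 of 230 values kept direction and call in each comparison. In ruxolitinib against DMSO 219 of 230 did, and the other 11 were HERC5. The members called between palbociclib and ruxolitinib were 5, but 8 with quantile normalization, 2 with a log2 fold change of at least 1, and 4 to 9 leaving out a library, the 9 without A119. With a log2 fold change of at least 1, 3 members instead of 5 were called for palbociclib against Prolif and 5 instead of 8 for ruxolitinib against Prolif. Some differences that were not called with the deposited scaling changed sign. IFIT5, palbociclib against Prolif, was 0.057 at equal upper quartiles and 0.12 under quantile normalization. HERC5 in that comparison was -0.011 with a pseudocount of 5, -0.30 under quantile normalization and -0.37 to 0.31 leaving out a library. USP18, ruxolitinib against Prolif, was 0.052 at equal totals, 0.024 at equal upper quartiles and -0.44 to 0.14 leaving out a library. The cause was not tested. No paired analysis was possible because the columns carry no replicate numbers.

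Over all genes, ruxolitinib against DMSO gave 508 calls, 1841 with only those groups in the fit, and as few as 261 without A122 (261 to 295 without any 1 of the 6 libraries compared). Equal totals moved the share of calls that were higher from 45.7% to 64.0% (Sen_DMSO against Prolif), 53.9% to 15.4% (palbociclib against DMSO), 56.4% to 15.7% (palbociclib against ruxolitinib) and 45.2% to 61.6% (ruxolitinib against Prolif), shifting the median gene by 0.23, -0.23, -0.20 and 0.20. Low reads limit HERC5 and the interferon genes most.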
